A study of Homo sapiens with 9 samples.

Results

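Nicotinamide N-methyltransferase (NNMT, ENSG00000166741.7) and 9 enzymes of NAD and methionine metabolism were followed in A375 cells, a human melanoma cell line, harvested 7 days after SPANX knockdown. The SPANX genes encode proteins normally made in the testis and found again in some tumours. The 10 genes are NNMT, NAMPT, NMNAT1, NADSYN1, NADK, NT5E, SIRT1, MAT2A, AHCY and MTR, each found by its symbol in the files, out of 60420 gene IDs. All 10 were among the 13825 IDs that could be tested. NNMT was chosen because its transcript had fallen with both constructs in an earlier analysis of these same libraries, so its values against the control are a description and carry no test. The other 9 genes were named for their place in the pathway, with the earlier results known. The study compared SPANX KD 86 (construct 86, here KD86), SPANX KD 87 (construct 87, here KD87) and an EV control (EV), with 3 libraries each. All 9 libraries come from this 1 cell line, and the labels do not say whether replicates are separate cultures; each p-value therefore rests on library-to-library spread alone, which may be technical.

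NNMT transfers a methyl group from S-adenosylmethionine to nicotinamide, the breakdown product of NAD, and so uses up both a precursor of NAD and the methyl donor of the cell. Nicotinamide that is not methylated is returned to NAD through nicotinamide mononucleotide, made by NAMPT and adenylated by the NMNAT enzymes. After each methylation S-adenosylhomocysteine is left, which AHCY splits to homocysteine, and MTR remethylates homocysteine to methionine, from which MAT2A makes new S-adenosylmethionine. NNMT is known to be abundant in several tumour types and in cancer-associated fibroblasts.

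Promoters of 3 genes are shown because the results below turn on them: NT5E rose with both constructs, NMNAT1 differed between the constructs, and INMT, a methyltransferase related to NNMT, moved opposite to it. The sequences are those of RefSeq (GRCh38.p14), 250 bases before to 50 after the start, 5′ to 3′, for NT5E at chr6:85449833-85450132, NMNAT1 at chr1:9943225-9943524 and INMT at chr7:30751885-30752184, all on the plus strand. Capitals mark matches, searched on both strands, to any of 4 motifs, and no match overlapped another. The letters GGGCGG were used for the GC box. The letters CCAAT stood for the CCAAT-box motif. The letters TATAAA were taken for the TATA box. The AP-1 motif was searched as TGANTCA, with any base at N.
NT5E: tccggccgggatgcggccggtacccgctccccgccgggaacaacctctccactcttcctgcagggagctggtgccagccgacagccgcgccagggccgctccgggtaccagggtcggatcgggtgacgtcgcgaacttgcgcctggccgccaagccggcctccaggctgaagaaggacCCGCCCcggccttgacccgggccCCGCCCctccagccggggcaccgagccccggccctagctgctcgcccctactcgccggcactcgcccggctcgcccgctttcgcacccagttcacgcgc
NMNAT1: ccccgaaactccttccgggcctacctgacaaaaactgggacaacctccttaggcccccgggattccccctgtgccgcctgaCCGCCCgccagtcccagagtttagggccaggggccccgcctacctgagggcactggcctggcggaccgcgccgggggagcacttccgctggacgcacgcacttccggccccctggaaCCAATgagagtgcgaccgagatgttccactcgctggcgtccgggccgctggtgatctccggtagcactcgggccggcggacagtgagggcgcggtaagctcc
INMT: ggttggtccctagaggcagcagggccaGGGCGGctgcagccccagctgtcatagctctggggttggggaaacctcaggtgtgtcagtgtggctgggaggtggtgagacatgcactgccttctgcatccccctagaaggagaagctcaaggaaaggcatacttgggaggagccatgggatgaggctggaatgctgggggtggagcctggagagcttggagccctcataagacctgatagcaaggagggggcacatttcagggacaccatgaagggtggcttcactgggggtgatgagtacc
NT5E held 2 GC boxes, NMNAT1 held 1 GC box and 1 CCAAT box, and INMT held 1 GC box. Of 35116 promoters of this length, 45% held a GC box, 34.6% a CCAAT box, 11.5% a TATA box and 7.7% an AP-1 site. The NT5E window held 37 CpG dinucleotides, the NMNAT1 window 27 and the INMT window 1. Of the 10 genes, 9 matched the promoter table; NNMT did not.

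The libraries held between 11310792 and 15563765 recovered reads. The labels name SPANX as the target without saying which gene. SPANXC stood at 59.7 ± 36.6 normalised reads in KD86, 25.6 ± 7.82 in KD87 and 354 ± 185 in EV (SD, n = 3 each). Every knockdown library was below every EV library. KD87 minus KD86 was log2 -1.07 for SPANXC (limma adjusted p = 0.149, and 0.0221 with the replicate block). This gene alone does not rank the constructs by strength of knockdown. SPANX copies are nearly identical and can share reads. Of 12 melanocytic markers 8 were tested, among them the lineage factor SOX10 at 15720, 9667 and 3593 normalised reads on average in KD86, KD87 and EV, while MLANA, TYR, TYRP1 and DCT were listed at 0 in every library. The summed melanocytic markers lay between 17450 and 24140 in KD86, between 10810 and 17040 in KD87 and between 4604 and 9113 in EV. SOX10 was the largest single part of this sum in every library, at 2266, 5890 and 2625 in EV replicates 1, 2 and 3. Of the 8 genes SOX10, S100A1 and EDNRB rose in both knockdowns, and PAX3 fell in KD87 (log2 -1.29, limma adjusted p = 0.00554). The share called was 37.5% in KD86, near the 35.6% of all genes, and 50% in KD87, against 10.4%. MITF, PMEL, ERBB3 and S100B did not pass in either knockdown, with log2 fold changes of -0.11, -0.78, -0.39 and 0.78 in KD86 and 0.33, 0.64, 0.75 and 1.47 in KD87; under the replicate block ERBB3 (adjusted p = 0.0448) and S100B (adjusted p = 0.00898) passed in KD87. The 9 tested of 11 fibroblast markers summed to between 1609 and 1853 in KD86. The sum lay between 959.8 and 1185 in KD87 and between 496.9 and 606.7 in EV. In KD86, 7 of the 9 rose in limma and 0 fell (77.8%, against 35.6% of all genes). DCN and COL1A2 did not pass (log2 1.42 and -0.65). In KD87 only DCN, LUM and PDGFRA rose and 0 fell (33.3%, against 10.4%). COL1A1, COL1A2, PDGFRB, FAP, FBLN1 and POSTN did not pass there (log2 0.73, 0.53, -0.11, 0.11, -1.09 and -0.02). LUM averaged 539.7 normalised reads in KD87 and 100.4 in EV. THY1 was listed at 0 throughout, and COL3A1 was above 0 only in KD87. Of 6 leukocyte markers only LYZ was above 0, and the endothelial VWF, CDH5 and EMCN were at 0. The endothelial TEK was not tested: its deposited values were 48, 44 and 33 in KD86, 0 in every KD87 library and 8, 9 and 10 in EV. The part of these markers in the results on metabolic genes was not tested. Fold changes moved with transcript length. Among the genes with the shortest transcripts (median length 1422 bases) the median log2 fold change was -0.44 in KD86 and -0.20 in KD87 against EV, and among those with the longest (median 6878 bases) it was 0.35 and 0.18. For the 10 genes, values with this length trend removed are given where they change a direction or a call. For other genes named by the rule given under processing, they are given where removing the trend alone ends a call against EV. These fits, and those leaving out a library, were not examined for genes outside that rule. Such genes are the cell type markers, MAT2B, MTRR, MTAP, SLC29A1 and the list genes named without values.

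NNMT was the member that fell most in both knockdowns. It stood at 150.1, 81.7 and 106.7 normalised reads in KD86 replicates 1, 2 and 3, at 161.8, 119.9 and 161.9 in KD87, and at 1588, 403.7 and 733 in EV. No knockdown library reached the lowest EV library, although the EV libraries themselves differed 3.93-fold, with replicate 1 highest and replicate 2 lowest. The means were 112.8 ± 34.6 in KD86, 147.9 ± 24.3 in KD87 and 908 ± 611 in EV (SD, n = 3 each). On the scale of log2 of the value plus 1, which understates changes of low genes, the difference was -2.82 ± 0.43 (SE) for KD86, 7.05-fold lower, and -2.40 ± 0.43 for KD87, 5.28-fold lower. Setting libraries of the same replicate number against each other, the difference was -3.39, -2.29 and -2.77 in KD86 and -3.29, -1.74 and -2.17 in KD87, so it was smallest in the pair of the low EV library with both constructs. Leaving out 1 library at a time kept it between -3.28 and -2.30 for KD86 and between -2.88 and -1.88 for KD87. The 2 knockdowns were not told apart: KD87 minus KD86 was 0.42 ± 0.43 (SE; limma adjusted p = 0.518), a comparison that did not choose the gene but rests on the same libraries. An antisense gene, AP002518.2, overlaps NNMT, and as the strand used in counting is not given their reads cannot be told apart.

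**Figure D1:**
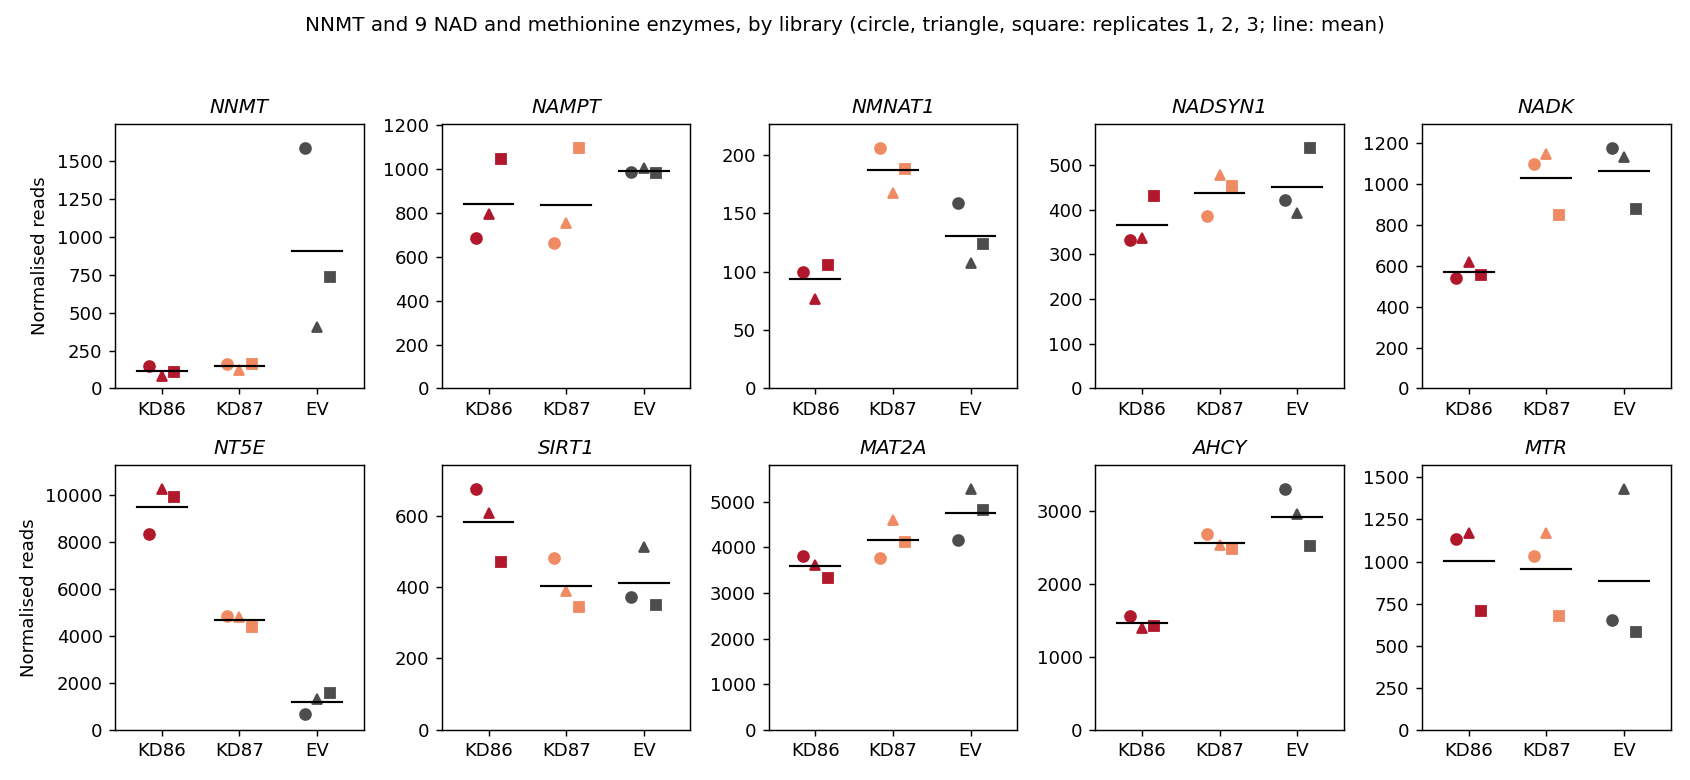
Normalised reads (vertical axis, linear, from 0) of the 10 genes in KD86, KD87 and EV libraries. Circles, triangles and squares are replicates 1, 2 and 3 and the line is the mean of 3. NNMT lies below and NT5E above all EV libraries in every knockdown library, while NADK and AHCY stand low in KD86.

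Of the 9 members other than NNMT, 1 was higher and 2 were lower in KD86 than in EV by limma at an adjusted p under 0.05, which is 33.3% of them, against 35.6% of all 13825 genes (18% higher and 17.6% lower). In KD87, 1 was higher and 0 lower than in EV, or 11.1%, against 10.4% of all genes (5.92% higher and 4.43% lower). These shares are near the background. With the replicate number as a block, 2 were higher and 3 lower in KD86, where the block called 55.3% of all genes, and 2 were higher and 0 lower in KD87, where it called 31% of all genes. Between the constructs (KD87 minus KD86), 3 were higher and 1 lower, or 44.4%, against 25.6% of all genes (12.7% higher and 12.9% lower). The median log2 fold change of the 9 genes was -0.30 in KD86 and -0.03 in KD87, and that of all genes was -0.04 and 0.00.

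Among the enzymes that return nicotinamide to NAD, NAMPT did not pass the test with either construct. NAMPT, which condenses nicotinamide with phosphoribosyl pyrophosphate and sets the rate of this salvage, stood at 687.7, 793.2 and 1046 normalised reads in KD86, at 663.1, 751.8 and 1096 in KD87 and at 986.8, 1006 and 979.8 in EV. In both knockdowns replicates 1 and 2 lay below all EV libraries and replicate 3 above them. The log2 fold changes were -0.26 ± 0.23 (SE; limma adjusted p = 0.402) in KD86 and -0.28 ± 0.23 (adjusted p = 0.462) in KD87. With both the length trend removed and the replicate number as a block, NAMPT passed downward in KD86 (log2 -0.46, adjusted p = 0.0281).

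NMNAT1, the nuclear enzyme that adenylates nicotinamide mononucleotide to NAD, differed between the constructs. Its level was 99.8, 76.4 and 105.5 normalised reads in KD86, 206, 167.8 and 188.4 in KD87, and 158.9, 107.8 and 124 in EV. No KD86 library reached an EV library and no KD87 library fell to one, so the 3 groups did not overlap. Neither difference from EV passed in limma (log2 -0.46 ± 0.24, adjusted p = 0.148 in KD86; 0.54 ± 0.24, adjusted p = 0.17 in KD87), but KD87 was 2.0-fold above KD86 (log2 1.0 ± 0.24, adjusted p = 0.0111). That call was lost without KD86 replicate 2 (adjusted p = 0.0581). Under the replicate block the rise in KD87 passed (adjusted p = 0.0483), and with the length trend also removed so did the fall in KD86 (adjusted p = 0.0222).

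NMNAT2, the cytoplasmic and axonal enzyme of the same reaction and one of the pathway list described below, was lower with both constructs. It stood at 213.1, 339.1 and 309.5 normalised reads in KD86, at 298.5, 375.9 and 305.5 in KD87 and at 746.7, 1008 and 733 in EV. All 6 knockdown libraries lay below the lowest EV library. The fall was 2.90-fold in KD86 (log2 -1.54, limma adjusted p = 0.00086) and 2.52-fold in KD87 (log2 -1.33, adjusted p = 0.00726). NMNAT3, the mitochondrial enzyme, was listed at 0 in every library.

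NADSYN1, the glutamine-dependent NAD synthetase at the end of the route from nicotinic acid and tryptophan, had 332.2, 336.4 and 430.3 normalised reads in KD86, 385.7, 476.9 and 452.1 in KD87, and 421.2, 392.8 and 537.9 in EV. The groups overlapped. Its log2 fold changes were -0.30 ± 0.20 (SE; limma adjusted p = 0.274) and -0.03 ± 0.20 (adjusted p = 0.936), and the sign in KD87 turned with the length trend removed (log2 0.0031).

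NADK, the cytosolic kinase that makes NADP from NAD, fell with construct 86. Its level was 538.5, 616.7 and 556.9 normalised reads in KD86, 1097, 1146 and 850.2 in KD87 and 1176, 1132 and 875.2 in EV. All KD86 libraries were below all others, and KD87 and EV libraries overlapped. The mean was 571 ± 40.9 in KD86, 1031 ± 159 in KD87 and 1061 ± 162 in EV (SD, n = 3 each). In KD86 it was 1.85-fold below EV (log2 -0.88 ± 0.19, limma adjusted p = 0.00572), and in KD87 the log2 fold change was -0.04 ± 0.19 (adjusted p = 0.914), whose sign turned without EV replicate 1, EV replicate 2 or KD87 replicate 3. The difference between the constructs passed (log2 0.84 ± 0.19, adjusted p = 0.00957). NADK2, the mitochondrial NAD kinase, was also lower in KD86, at 347 ± 48.0 against 662 ± 30.9 in EV (log2 -0.94, adjusted p = 0.00359), and stood at 455 ± 67.5 in KD87 (log2 -0.55, adjusted p = 0.0869; adjusted p = 0.0187 with the replicate block).

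NT5E was the member that rose, and it rose with both constructs. NT5E is CD73, an ectoenzyme that splits AMP to adenosine and nicotinamide mononucleotide to nicotinamide riboside outside the cell. It stood at 8313, 10240 and 9921 normalised reads in KD86, at 4847, 4782 and 4358 in KD87 and at 666.7, 1287 and 1576 in EV. The 3 groups did not overlap, and every KD86 library was above every KD87 library. The means were 9491 ± 1032 in KD86, 4662 ± 266 in KD87 and 1177 ± 465 in EV (SD, n = 3 each). NT5E was 8.54-fold above EV in KD86 (log2 3.09 ± 0.28, limma adjusted p = 7.59e-05) and 4.21-fold above it in KD87 (log2 2.07 ± 0.28, adjusted p = 0.0029). The rise in KD87 was 2.03-fold smaller than in KD86 (log2 -1.02 ± 0.28, adjusted p = 0.0231). That last call was lost without KD86 replicate 2 or 3 or any 1 of the KD87 replicates, with adjusted p between 0.0575 and 0.0772.

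SIRT1, a deacetylase that consumes NAD and is inhibited by nicotinamide, stood at 675.1, 607 and 470.2 normalised reads in KD86, at 481.3, 388.7 and 344.1 in KD87 and at 371.2, 512.4 and 349.2 in EV. KD86 replicates 1 and 2 were above every EV library and replicate 3 was not. The log2 fold changes were 0.51 ± 0.23 (SE; limma adjusted p = 0.103) in KD86 and -0.01 ± 0.23 (adjusted p = 0.976) in KD87. The difference in KD86 passed without EV replicate 2 (log2 0.69, adjusted p = 0.033) and with the replicate block (adjusted p = 0.0257), and under the block the constructs differed too (adjusted p = 0.0281).

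**Figure D2:**
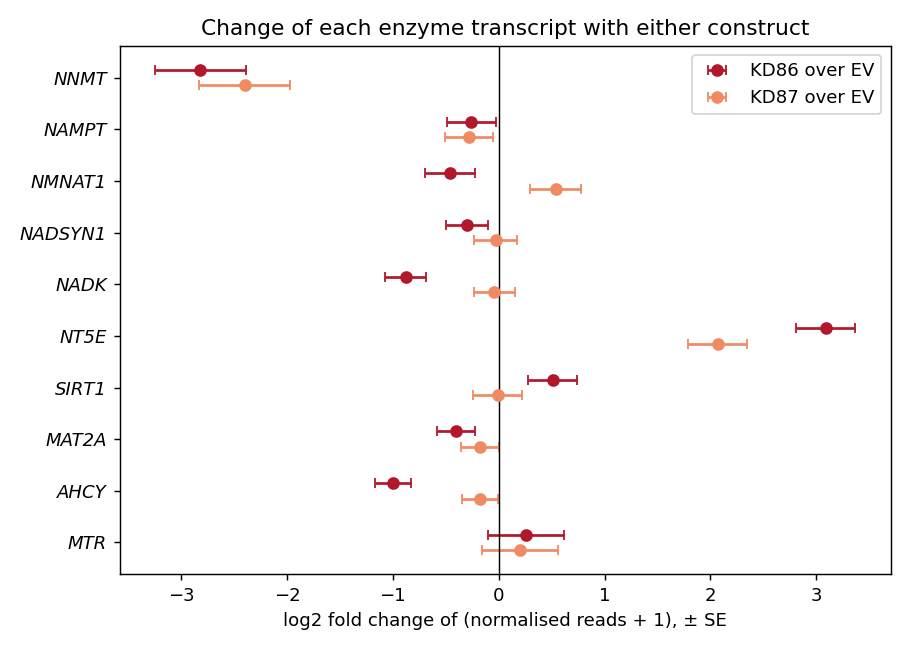
Log2 fold change of normalised reads plus 1 (horizontal axis, with its SE from limma) of each gene in KD86 over EV and KD87 over EV. NNMT lies near -2.82 and -2.40 and NT5E near 3.09 and 2.07, and NADK and AHCY lie at -0.88 and -1.0 in KD86 and at -0.04 and -0.18 in KD87.

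Among the methionine cycle enzymes AHCY fell with construct 86. AHCY splits S-adenosylhomocysteine, the product and inhibitor of methyltransferases. It had 1556, 1399 and 1414 normalised reads in KD86, 2683, 2535 and 2476 in KD87 and 3295, 2952 and 2516 in EV. All KD86 libraries were below all others, and KD87 and EV overlapped in their lower part. The means were 1457 ± 86.8 in KD86, 2565 ± 107 in KD87 and 2921 ± 391 in EV (SD, n = 3 each). AHCY was 2.0-fold below EV in KD86 (log2 -1.0 ± 0.17, limma adjusted p = 0.0016), with -0.18 ± 0.17 (adjusted p = 0.523) in KD87, and the constructs differed (log2 0.82 ± 0.17, adjusted p = 0.00561).

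The AHCY-like proteins, which regulate calcium channels and transporters rather than split S-adenosylhomocysteine, went apart in KD86. AHCYL1 was at 687, 1059 and 1216 normalised reads in KD86, at 2276, 2267 and 2163 in KD87 and at 1659, 2435 and 1868 in EV, and its fall in KD86 passed (log2 -1.03, limma adjusted p = 0.0072). AHCYL2 was at 555, 694.8 and 526.5 in KD86, 522.3, 430.7 and 258.6 in KD87 and 234.5, 341.6 and 213.4 in EV, and its rise in KD86 passed (log2 1.19, adjusted p = 0.00921). In KD87 the log2 fold changes were 0.19 (adjusted p = 0.639) for AHCYL1 and 0.59 (adjusted p = 0.211; 0.0436 with the replicate block) for AHCYL2.

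MAT2A, which makes S-adenosylmethionine in cells outside the liver, stood at 3808, 3621 and 3323 normalised reads in KD86, at 3772, 4609 and 4128 in KD87 and at 4152, 5275 and 4812 in EV. Every KD86 library was below every EV library, and KD87 overlapped both. The log2 fold changes were -0.40 ± 0.18 (SE; limma adjusted p = 0.1; 0.0353 with the replicate block) and -0.18 ± 0.18 (adjusted p = 0.532). GGCX overlaps MAT2A on the opposite strand, and their reads cannot be told apart here. MAT2B, the regulatory subunit, was lower in KD87, at 761 ± 284 against 1615 ± 492 in EV (log2 -1.10, adjusted p = 0.0441), and stood at 1360 ± 276 in KD86 (log2 -0.22, adjusted p = 0.59).

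MTR, the cobalamin-dependent methionine synthase, had 1133, 1167 and 707 normalised reads in KD86, 1030, 1169 and 675.1 in KD87 and 651.2, 1430 and 578.8 in EV. EV replicate 2 was the highest of all 9 libraries, and replicate 3 was the lowest of each group. The log2 fold changes were 0.26 ± 0.36 (SE; limma adjusted p = 0.587) in KD86 and 0.20 ± 0.36 (adjusted p = 0.757) in KD87. Without EV replicate 2 they were 0.68 (adjusted p = 0.0754) and 0.60 (adjusted p = 0.157), and with the length trend removed both turned sign, to -0.20 and -0.03. MTR has the longest transcript of the 10 genes, with 10529 bases, against 1867 for NNMT. MTRR, which reactivates MTR, did not pass in KD86 (log2 -0.26, adjusted p = 0.222) or in KD87 (log2 -0.30, adjusted p = 0.256).

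INMT, an indolethylamine N-methyltransferase of the same enzyme family as NNMT, went the other way. It stood at 125.9, 59.7 and 75.0 normalised reads in KD86, at 46.2, 36.0 and 58.0 in KD87 and at 7.78, 6.39 and 9.70 in EV. All knockdown libraries were above all EV libraries, where the level rested on 7, 7 and 9 reads. The log2 fold change was 3.24 (limma adjusted p = 0.000189), 9.45-fold, in KD86 and 2.40 (adjusted p = 0.00433), 5.29-fold, in KD87. A readthrough gene, INMT-MINDY4, overlaps INMT on the same strand, so its share of these reads is uncertain. PNMT, the third member of this family and the enzyme that makes adrenaline, was listed at 0 in every library.

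**Figure D3:**
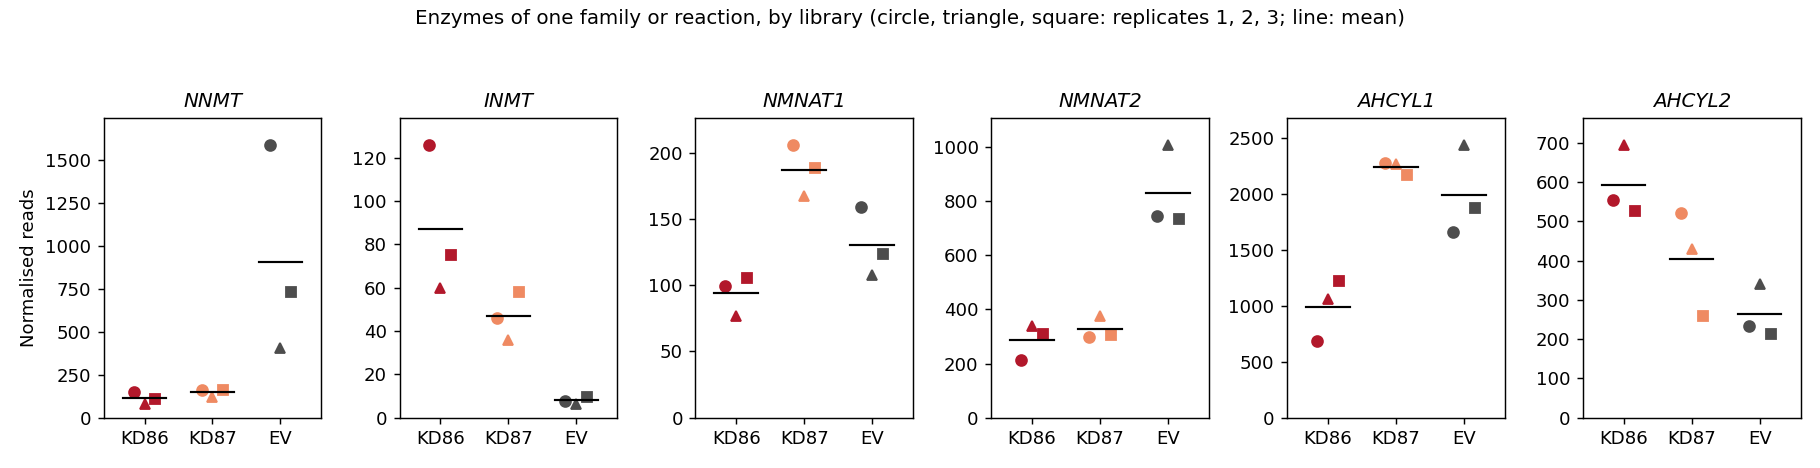
Normalised reads (vertical axis, linear, from 0, a separate scale for each gene) of NNMT, INMT, NMNAT1, NMNAT2, AHCYL1 and AHCYL2 in KD86, KD87 and EV libraries. Symbols are replicates 1, 2 and 3 and the line is the mean. NNMT and NMNAT2 are low and INMT is high in all 6 knockdown libraries, while NMNAT1 and AHCYL1 are lower in KD86 than in KD87.

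The wider pathway was described with 8 gene lists, which hold the members too and were drawn up with earlier results known. Of the NAD salvage, nicotinic acid and NAD phosphorylation list, 0 rose and 4 of 11 tested fell in KD86 (NMRK1, NMNAT2, NADK and NADK2), and 0 rose and 1 fell in KD87 (NMNAT2). These are 36.4% and 9.09% of the list, near the 35.6% and 10.4% of all genes. NMRK1, the nicotinamide riboside kinase, averaged 10.4 ± 4.22 normalised reads in KD86, 39.9 ± 21.7 in KD87 and 39.0 ± 18.6 in EV (log2 -1.77, limma adjusted p = 0.024 in KD86), a call lost without EV replicate 1 or 3 or KD86 replicate 1 or 2 (adjusted p between 0.0562 and 0.088). The median log2 fold change of this list was -0.38 in KD86 and -0.12 in KD87. For the de novo route from tryptophan 3 of 9 genes were tested. AFMID, kynurenine formamidase, was lower in KD86, at 105.7 ± 12.4 against 197.7 ± 42.6 in EV (log2 -0.88, adjusted p = 0.0208), a call lost without EV replicate 3 or KD86 replicate 1 or 2 (adjusted p between 0.0549 and 0.0826) and with the length trend removed (adjusted p = 0.0541). KYNU (kynureninase) did not pass in KD86 (log2 -0.62, adjusted p = 0.198) or KD87 (log2 0.42, adjusted p = 0.48), but was lower in KD86 without KD86 replicate 3 (adjusted p = 0.0394) and with both the length trend removed and the replicate block (adjusted p = 0.0113). QPRT, which makes nicotinic acid mononucleotide from quinolinic acid, did not pass either (log2 -0.66, adjusted p = 0.536 in KD86; -1.23, adjusted p = 0.339 in KD87), but was lower in KD87 with the block (adjusted p = 0.0432). TDO2, IDO1, IDO2, HAAO and ACMSD were listed at 0 throughout.

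Of 23 tested enzymes that consume NAD, 6 rose and 2 fell in KD86 (34.8%, against 35.6% of all genes), and 1 rose and 0 fell in KD87 (4.35%, against 10.4%). PARP8, a mono-ADP-ribosyltransferase, rose with both constructs, to 974 ± 157 normalised reads in KD86 and 702 ± 113 in KD87, against 220 ± 46.8 in EV (log2 2.16 and 1.69; limma adjusted p = 0.000144 and 0.00272). PARP14, another enzyme of this kind, rose in KD86 to 1437 ± 301, against 475 ± 233 in EV (log2 1.68, adjusted p = 0.00305); in KD87 its log2 value was 0.85 (adjusted p = 0.122; 0.0145 with the replicate block and 0.0131 without EV replicate 2). PARP1, the main poly-ADP-ribose polymerase of DNA damage signalling, fell in KD86 to 2634 ± 75.8, against 5991 ± 1903 in EV (log2 -1.13, adjusted p = 0.00541); in KD87 its log2 value was -0.50 (adjusted p = 0.215). SIRT4, a mitochondrial sirtuin, rose in KD86 (log2 1.40, adjusted p = 0.00788). The other calls in KD86 were rises of PARP9, TNKS2 and BST1 and a fall of PARP2; CD38, a NAD glycohydrolase, was listed at 0 throughout. With the replicate block 10 rose and 3 fell in KD86 (56.5%, against 55.3% of all genes), and 7 rose and 2 fell in KD87 (39.1%, against 31%).

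Of 9 tested ectonucleotidases and adenosine genes, 4 rose and 2 fell in KD86 (66.7%, against 35.6% of all genes), and 2 rose and 1 fell in KD87 (33.3%, against 10.4%). DPP4, a surface peptidase that binds adenosine deaminase, had 368.1, 444.5 and 349.4 normalised reads in KD86, 35.7, 47.1 and 46.8 in KD87 and 11.1, 21.0 and 14 in EV, so that the groups did not overlap. Its log2 fold change was 4.6 in KD86 (limma adjusted p = 1.64e-05) and 1.47 in KD87 (adjusted p = 0.0116; 0.0506 without KD87 replicate 2), and the constructs differed (adjusted p = 0.00013). ENPP2, or autotaxin, rose in KD86 to 166 ± 23.0, against 44.8 ± 11.5 in EV (log2 1.89, adjusted p = 0.0019), and stood at 25.6 ± 8.76 in KD87 (log2 -0.81, adjusted p = 0.142; 0.029 with the replicate block). The nucleoside transporter SLC29A2 fell in KD86 (log2 -1.85, adjusted p = 0.00637) and did not pass in KD87 (log2 -0.30, adjusted p = 0.669). Its relative SLC29A1 fell in KD87 (log2 -1.01, adjusted p = 0.0152). Every KD86 library of SLC29A1 was also below every EV library (log2 -0.43, adjusted p = 0.136, and 0.0476 with the replicate block). ADK, adenosine kinase, fell in KD86 (log2 -0.97, adjusted p = 0.0316), a call lost without EV replicate 1 or 3 or KD86 replicate 1 or 2 (adjusted p between 0.067 and 0.129). ENTPD1, ENTPD2 and ENTPD3, which make AMP from ATP and ADP, were listed at 0 throughout.

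Of 11 tested genes of the methionine cycle list, 1 rose (AHCYL2) and 3 fell (AHCY, AHCYL1 and ADK) in KD86, and 1 rose (MMACHC) and 1 fell (MAT2B) in KD87. These counts include AHCYL1 and AHCYL2, which do not themselves split S-adenosylhomocysteine. The share called was 36.4% in KD86, near the 35.6% of all genes, and 18.2% in KD87, beside 10.4%. MMACHC, a cobalamin carrier, averaged 530 ± 26.0 normalised reads in KD87 against 303 ± 37.4 in EV (log2 0.81, limma adjusted p = 0.033), a call lost without any 1 of EV replicates 1 and 3 or the KD87 replicates (adjusted p between 0.056 and 0.129), with the length trend removed (adjusted p = 0.0698) and when only the groups compared were fitted (adjusted p = 0.0506). The median log2 fold change of the list was -0.26 in KD86 and -0.18 in KD87. MAT1A, BHMT, BHMT2 and GNMT, which are mainly enzymes of the liver, were listed at 0 throughout.

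Of 14 tested folate genes, 7 fell, 0 rose and 7 did not pass in KD86, beside 17.6% of all genes lower. In KD87, 2 fell and 0 rose, beside 4.43% of all genes lower. ALDH1L2, a mitochondrial formyltetrahydrofolate dehydrogenase, stood at 57.9 ± 12.4 normalised reads in KD86, 193 ± 48.0 in KD87 and 241 ± 62.4 in EV (log2 -2.03, limma adjusted p = 0.00061 in KD86; -0.32, adjusted p = 0.504 in KD87). MTHFD1, the trifunctional folate enzyme of the cytosol, had 682 ± 9.81 in KD86, 1491 ± 299 in KD87 and 1940 ± 658 in EV (log2 -1.45, adjusted p = 0.00184; -0.34, adjusted p = 0.411), and SHMT2, the mitochondrial serine hydroxymethyltransferase, 1955 ± 54.3, 3248 ± 490 and 4107 ± 753 (log2 -1.06, adjusted p = 0.00245; -0.33, adjusted p = 0.295). TYMS, thymidylate synthase and a gene of S phase, fell with both (log2 -1.10 and -1.38, adjusted p = 0.00857 and 0.00975; 0.054 in KD87 without KD87 replicate 1). The list's median log2 fold change was -0.61 in KD86 and -0.39 in KD87, against -0.04 and 0.00 over all genes.

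The transsulfuration and methionine salvage list had 1 rise (MRI1) and 5 falls among 10 tested genes in KD86, and 0 rises and 2 falls in KD87. Of all genes, 18% were higher and 17.6% lower in KD86, and 5.92% were higher and 4.43% lower in KD87. CTH, or cystathionase, which makes cysteine from cystathionine, stood at 40.7, 29 and 38.7 normalised reads in KD86, at 95.6, 87.3 and 112 in KD87 and at 216.7, 101.4 and 145.5 in EV (log2 -2.01, limma adjusted p = 0.000912 in KD86; -0.59, adjusted p = 0.242 in KD87). GOT1, the cytosolic aspartate aminotransferase, fell in KD86 to 423 ± 45.1, against 1035 ± 167 in EV (log2 -1.28, adjusted p = 0.00061). Its log2 fold change in KD87 was -0.41 (adjusted p = 0.166, and 0.0459 with the replicate block). SRM, spermidine synthase, fell in KD86 to 1580 ± 286, against 3610 ± 875 in EV (log2 -1.18, adjusted p = 0.00352, and 0.0577 with the length trend removed). For SRM the log2 fold change in KD87 was -0.61 (adjusted p = 0.122, and 0.0123 with the replicate block). APIP and ADI1 of the methionine salvage pathway were the other falls in KD86. In KD87 the falls were those of ENOPH1 (log2 -0.98, adjusted p = 0.0125; 0.0508 to 0.0674 without EV replicate 1, KD87 replicate 1 or KD87 replicate 2) and AMD1 (log2 -0.77, adjusted p = 0.0472), and the call for AMD1 was lost without EV replicate 1 or 3 or any 1 KD87 replicate, with adjusted p between 0.0547 and 0.163. AMD1, S-adenosylmethionine decarboxylase, opens the polyamine route from the methyl donor. MTAP, which recovers methylthioadenosine, had log2 fold changes of -0.04 and -0.07 (adjusted p = 0.893 and 0.841), and CBS, cystathionine beta-synthase, was listed at 0 in every library.

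Of 14 tested small-molecule methyltransferases and related genes, NNMT included, 2 rose (INMT and TPMT) and 6 fell in KD86, and 1 rose (INMT) and 2 fell (NNMT and PEMT) in KD87. The share called was 57.1% in KD86 and 21.4% in KD87, beside 35.6% and 10.4% of all genes; NNMT stands in these counts although it was chosen for its fall. PEMT, which methylates phosphatidylethanolamine, averaged 317 ± 12.8 normalised reads in KD86, 355 ± 51.0 in KD87 and 640 ± 149 in EV (log2 -0.99 and -0.84, limma adjusted p = 0.00511 and 0.0311). With the length trend removed these were adjusted p = 0.0517 and 0.0522, and the call in KD87 was also lost without EV replicate 1 or 3 or KD87 replicate 1 or 2 (adjusted p between 0.0581 and 0.137). AOX1, an aldehyde oxidase that oxidises the N-methylnicotinamide made by NNMT, stood at 21.3, 24.6 and 34.0 in KD86, at 96.7, 86.5 and 122.2 in KD87 and at 125.6, 67.6 and 53.9 in EV. It fell in KD86 (log2 -1.53, adjusted p = 0.00712), had a log2 fold change of 0.38 in KD87 (adjusted p = 0.51) and differed between the constructs (adjusted p = 0.00304). COQ3, a methyltransferase of coenzyme Q synthesis, fell in KD86 (log2 -1.66, adjusted p = 0.00317). Its log2 fold change in KD87 was -0.71 (adjusted p = 0.185, and 0.0367 with the replicate block). COQ5 and TRMT112 were the remaining falls in KD86.

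With the replicate number as a block the counts of several lists in KD87 moved by more than 1.5 times. Those of all genes did so in both knockdowns, with 55.3% called in KD86 and 31% in KD87. In KD87 the folate list then had 1 rise and 5 falls (42.9%), and the transsulfuration and methionine salvage list 0 and 6 (60%). The NAD salvage list had 1 and 2 (27.3%), the methyltransferase list 2 and 4 (42.9%), and the ectonucleotidase list 3 and 2 (55.6%). In KD86 the methyltransferase list went from 2 rises and 6 falls to 4 and 8 (85.7%). The methionine cycle list went from 1 and 3 to 1 and 5 (54.5%). The NAD salvage list stayed at 0 rises and 4 falls (36.4%, against 55.3% of all genes).

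**Figure D4:**
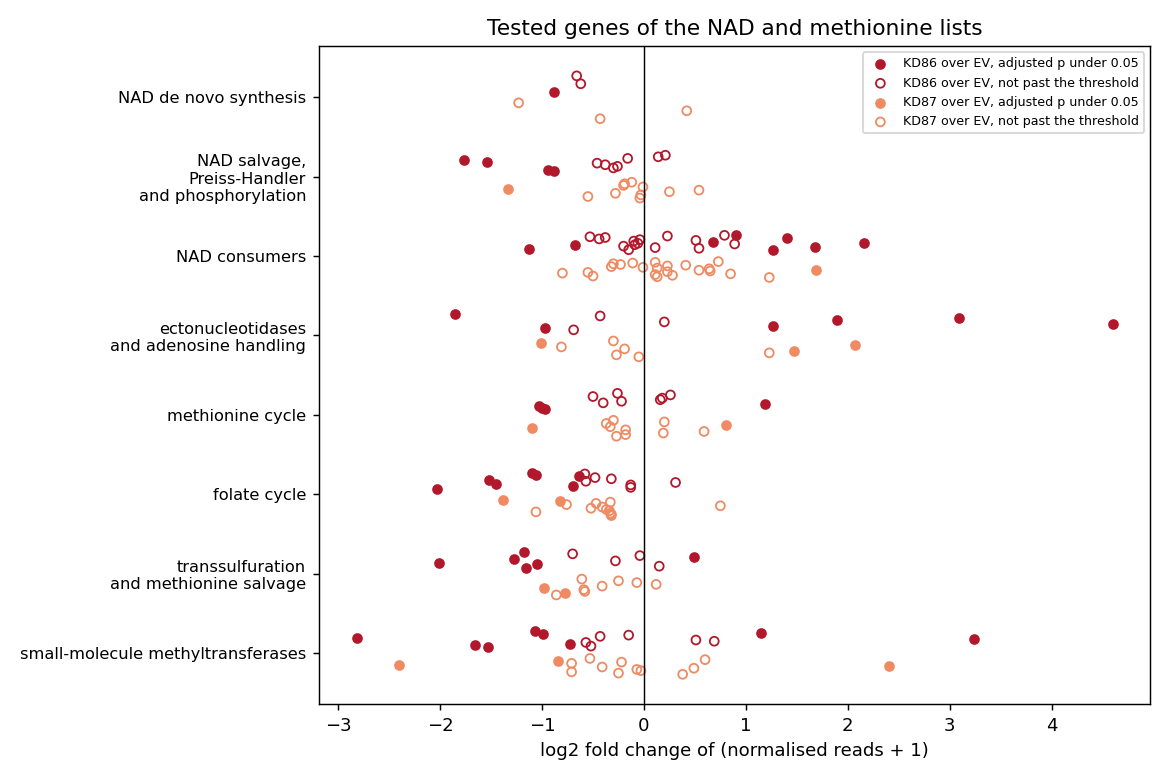
Log2 fold change of normalised reads plus 1 (horizontal axis) of every tested gene of the 8 lists, in KD86 over EV and KD87 over EV. Filled points passed an adjusted p under 0.05 in limma and open points did not. More points are filled in KD86, and the farthest right is DPP4 at 4.6 in KD86.

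The profile of NNMT over the 9 libraries was compared with those of 13818 other genes averaging at least 10 normalised reads, after each gene's mean was subtracted on the log2 scale. The nearest were KRT16 (a keratin with close copies that can share reads; root mean square difference 0.416), FGFBP1 (a carrier of fibroblast growth factors; 0.443), NMU (the neuropeptide neuromedin U; 0.452), KISS1 (the precursor of kisspeptin, first described as a metastasis suppressor of melanoma; 0.484) and MAL2 (a protein of membrane traffic; 0.553). The profile of NNMT itself had an SD of 1.35 on this scale. FGFBP1 stood at 11.6, 9.66 and 9.38 normalised reads in KD86, at 16.8, 13.7 and 36.7 in KD87 and at 157.8, 63.9 and 127.2 in EV. KRT16 stood at only 5.81, 2.635 and 3.52 in KD86 and at 7.36, 4.28 and 8.145 in KD87. KISS1 stood at 4.84, 2.635 and 7.035 in KD86 and at 4.20, 10.27 and 7.13 in KD87. At values this low the added 1 shapes the log2 profile. In all 5 genes every knockdown library was below every EV library. EV replicate 2 was the lowest EV library in 4 of them, as in NNMT, and EV replicate 3 was the lowest for KRT16. These genes were picked by their likeness to a gene chosen for its fall, so their own differences from EV carry no test.

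**Figure D5:**
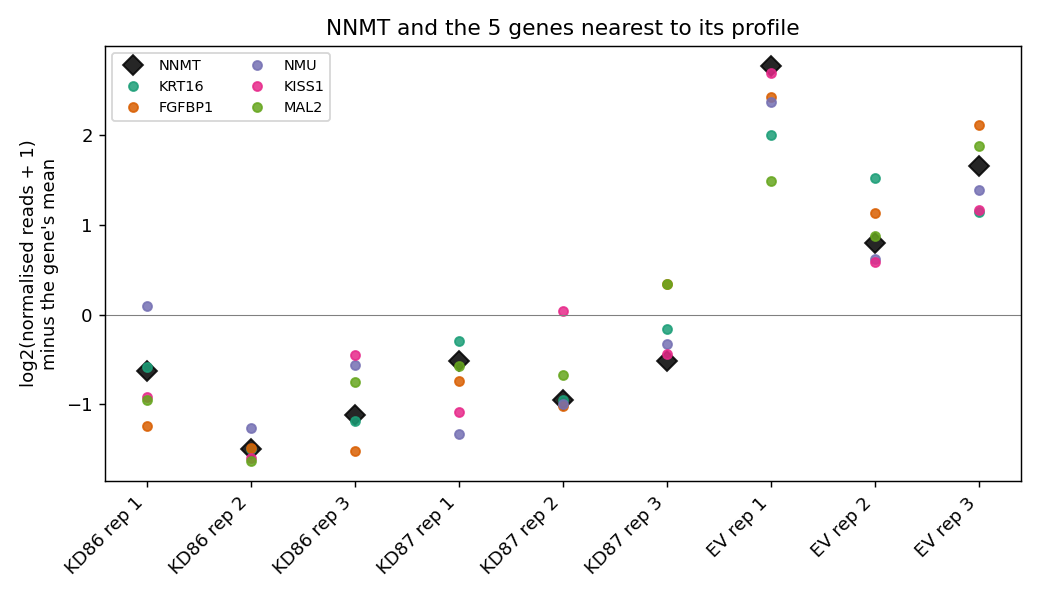
Log2 of normalised reads plus 1, minus each gene's mean (vertical axis), in each of the 9 libraries for NNMT (black diamonds) and the 5 genes nearest to it. All 6 genes are above their mean in the 3 EV libraries, and NNMT is below its mean in all 6 knockdown libraries.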

How the data were processed

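RNA of A375 cells was measured by 3′ mRNA sequencing in 9 libraries, 3 each of KD86, KD87 and EV. The deposited value is a score: a normalized read count per the file headers, whose values step by a constant of each library. STAR, featureCounts, Subread and edgeR with build hg19 are named per the submitters' processing notes, without versions or settings. Each library's scaling constant was recovered from the values, giving whole reads. These were rescaled with the trimmed mean of M values (30% and 5% trimmed), and log2(value + 1) was fitted in limma 3.58.1 (R 4.3.3) with a variance trend and 3 group terms; p-values are two-sided, Benjamini-Hochberg adjusted over 13825 genes, with a threshold of 0.05. IDs listed at 0 in all libraries (45742), above 0 only in EV and KD86 files (400) or only in KD87 files (453) were not tested. A value of 0 in the files can be a filtered one. Transcript lengths are those of GENCODE v29.

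The members and lists were chosen with earlier results of these data known. Genes named with values were the members, SPANXC and SPANXD, up to 4 genes of each list with the smallest adjusted p in either knockdown, list genes that differed between the constructs, and the 5 profiles nearest to NNMT. The melanocytic and fibroblast markers, TEK, MAT2B, MTRR, MTAP and SLC29A1 were added after their values were seen. The result for 1 gene that the rule names is not reported here. Same-numbered libraries deviated together from their group means (r = 0.215 to 0.722 in all 9 pairs, and -0.644 to 0.14 in the other 18 pairs). The replicate number was therefore fitted as a block as an alternative. Deviations from a group mean cancel within the group, so high values in same-numbered pairs push those of the other pairs down. The 18 other pairs are thus no separate evidence for the block. The fit was also run on simulated reads, drawn independently for each library. That run lacks the shared deviation of same-numbered libraries, so it cannot show how the fit behaves under it.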

Additional observations from a re-analysis of the deposited data

Results flagged for a closer look

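The constructs differed by limma's test of KD87 minus KD86 for 4 of the 10 genes. The log2 difference was 1.00 for NMNAT1, 0.84 for NADK, -1.02 for NT5E and 0.82 for AHCY. Calls for NMNAT1 and NT5E were lost without single libraries, as given with each gene.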

How the results depend on the processing

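Of 13825 genes, KD86 against EV called 4928, KD87 against EV 1431 and KD87 against KD86 3533. With the replicate number as a block the counts were 7647, 4284 and 6094, and with the length trend removed as well 7573, 4800 and 6571. Fitting only the groups compared left 857 for KD87 against EV. Leaving out 1 library gave between 3075 (without KD86 replicate 2) and 6036 (without EV replicate 2) for KD86 against EV, between 378 (without KD87 replicate 1) and 2556 (without EV replicate 2) for KD87 against EV, and between 2215 and 2954 for KD87 against KD86. The causes were not tested. The deposited values are scaled and rounded, and the planned count test in edgeR was not run on them or on the recovered reads. Of 2205 alternative values for named genes 1998 kept direction and side of the threshold, 97 lost and 69 gained a call and 41 changed sign. With the length trend removed, with or without the block, the sign changed for MTR (-0.1995 in KD86, -0.0284 in KD87 and 0.1711 in KD87 against KD86), NAMPT in KD87 against KD86 (0.0940; 0.0026 as deposited), NADSYN1 (0.0031) and NMRK1 (0.0909) in KD87, MMACHC in KD86 (-0.0958) and PEMT in KD87 against KD86 (-0.0945). Leaving out 1 library gave log2 values in KD87 between -0.1739 and 0.0916 for NADK, -0.1502 and 0.1501 for SIRT1, -0.1290 and 0.1016 for NADSYN1, -0.0482 and 0.5989 for MTR, -0.3944 and 0.4444 for NMRK1, and -0.6080 and 0.0593 for SLC29A2; in KD86 between -0.0266 and 0.2798 for AMD1; and in KD87 against KD86 between -0.3140 and 0.1660 for MTR, -0.2320 and 0.1330 for NAMPT, -0.0050 and 0.3285 for NMNAT2, -0.6557 and 0.0218 for NMU, and -1.4409 and 0.0773 for QPRT. INMT in EV rests on 7 to 9 reads, which limits its fold change.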
